A study of Mus musculus with 6 samples.

Results

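The genes described here are 10 cytokines and receptors of 3 signalling axes in a mouse microglial line: oncostatin M and LIF with the receptor chains Il6ra and Il6st, interleukin 10 with Il10ra and Il10rb, and Il1a with the antagonist Il1rn and the receptor chain Il1rap. They were chosen by name, and all 10 were found among the 40202 genes of the deposited table of normalised reads. Total RNA was sequenced from 6 samples of BV2, an immortalised microglial line of C57BL/6 background. The 3 control samples were untreated, and the 3 FL-ApoE4 samples were exposed for 5 h to human full-length apolipoprotein E4, a lipid-carrying protein, at 25 µg/ml. All samples are of 1 cell line, and the labels state neither a vehicle for the controls nor whether replicates were grown apart, so the spread behind every p-value is that of these libraries and may be technical.

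Oncostatin M, LIF and interleukin 6 are related cytokines that share the signal-transducing receptor gp130, the product of Il6st. Each receptor complex activates JAK kinases and mainly the transcription factor STAT3, which also carries the signal of interleukin 10, the main anti-inflammatory cytokine of macrophages and microglia. The interleukin 1 axis works through another route, in which IL-1α or IL-1β binds its receptor, recruits the accessory chain encoded by Il1rap and signals through MyD88 and IRAK kinases. The product of Il1rn occupies the same receptor without signalling.

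Libraries held 45700128 to 54965393 reads assigned to genes. Counting error was large for Lif and Il10, moderate for Il1a, at 35 to 173 reads per library, and smaller for the others. Of 12 microglia and macrophage markers 11 passed the filter of a mean of at least 10 normalised reads, and P2ry12 was listed at 0 in all 6 libraries, as was the commonly expressed B2m. A value of 0 is therefore reported only as listed at 0. Summed over that list, the markers reached 148268 to 152721 normalised reads in controls and 168318 to 175794 with FL-ApoE4, without overlap. Csf1r (means of 47193 and 55105) and Adgre1 (22192 and 28240) were the largest genes of the sum. These and Cx3cr1, Aif1 and Tmem119 were higher in every treated library, as in 11.1% of genes tested. Itgam, Ptprc, Tyrobp, Trem2, Spi1 and Fcgr3 overlapped between groups. The part of this in the results below was not tested. The 4 T and B cell markers together reached at most 1.96 normalised reads in any library, and the 4 fibroblast markers at most 8.69. The 4 endothelial markers summed to 3002 to 4765 in controls and 4017 to 4534 with FL-ApoE4, nearly all from Kdr, and the 4 oligodendrocyte markers to 1151 to 1242 and 1211 to 1295, mostly from Mbp. Their part in the results was not tested. In bulk RNA, fewer expressing cells and less RNA per cell cannot be told apart.

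Per kilobase of the longest protein-coding transcript, the controls ranked Il10rb first, at 3661 ± 356 normalised reads per kilobase (mean ± SD, n = 3, as for all levels in this paragraph), followed by Il1rn at 1541 ± 744. Il6st at 557 ± 107 and Osm at 543 ± 132 lay within each other's spread, as did Il6ra at 255 ± 49.3 and Il10ra at 225 ± 62.0. Il1a at 51.2 ± 38.1 and Il1rap at 33.6 ± 5.28 also overlapped. Il10 at 9.34 ± 3.32 and Lif at 1.32 ± 0.35 were the lowest of the 10. Among the 10, Il6st, Il6ra, Il10ra, Il10rb and Il1rn thus had far more reads per length than Il10, Lif and Il1a. Of the 4 cytokines Osm had the highest level.

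**Figure D1:**
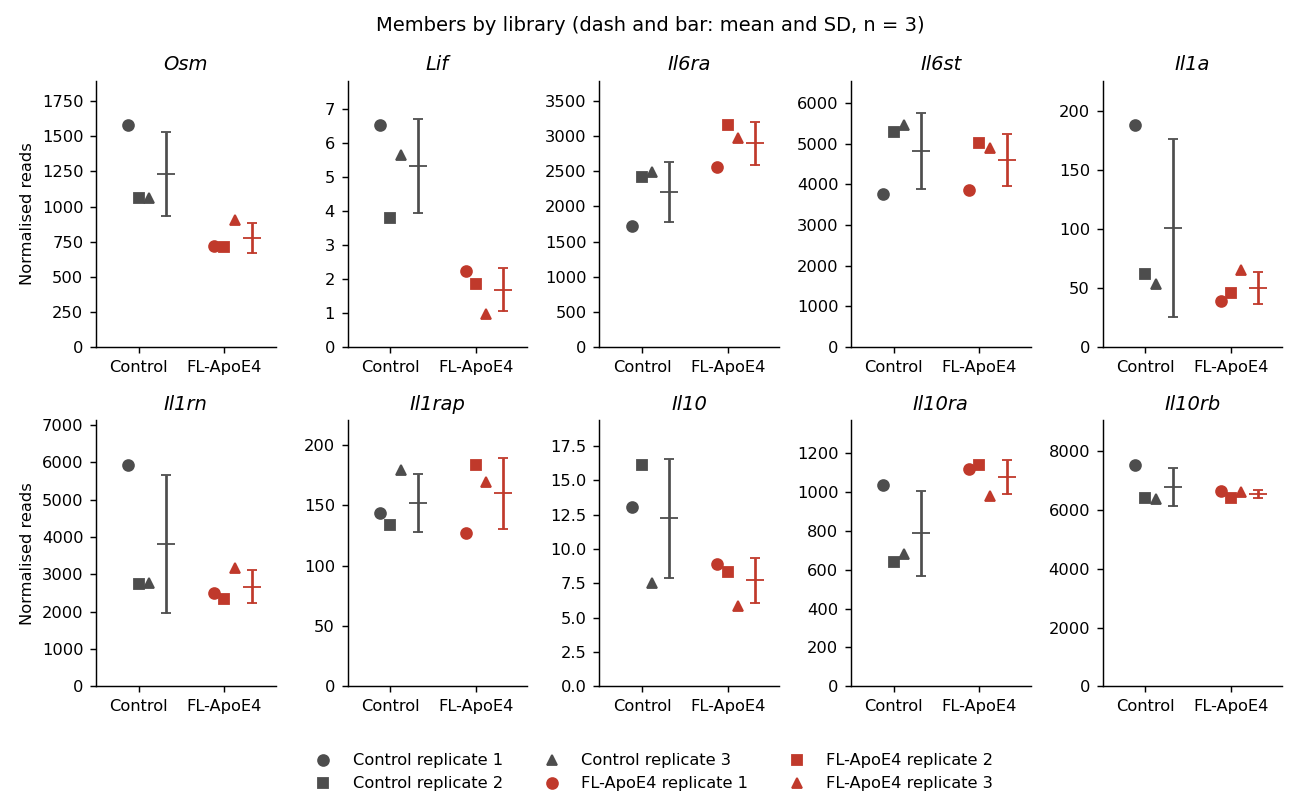
Normalised reads of the 10 genes in each library, with a separate linear axis from 0 per gene; grey points are the 3 controls, red points the 3 FL-ApoE4 libraries, marker shape gives the replicate, and the dash and bar are mean and SD. Control replicate 1 (grey circle) is the highest library for Osm, Lif, Il1a, Il1rn and Il10rb and the lowest for Il6ra and Il6st.

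Control replicate 1 stood apart from the other controls in most of these genes, and values without it stand beside those with all 6 libraries for the named genes whose sign, call or size (by over 1.5 times) differed. On the log2(value + 1) scale it lay above the mean of control replicates 2 and 3 by 1.69 in Il1a, 1.11 in Il1rn, 0.65 in Il10ra, 0.57 in Osm and 0.24 in Il10rb. It lay lower in Il6ra (-0.51), Il6st (-0.51) and Il1rap (-0.11). What set this library apart was not tested. Over all 14079 genes past the filter, the median of the same difference was -0.0032.

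Across the whole table, limma on log2(value + 1) called 0 of 14079 genes at a Benjamini-Hochberg adjusted p under 0.05 (0%), so none of the 10 genes was called with all 6 libraries. At an unadjusted p under 0.05 there were 1850 genes (13.1%), edgeR also called 0, and DESeq2 called 370 (2.91%). Of the 8 genes past the filter, 3 had an unadjusted p under 0.05: Osm, lower with FL-ApoE4, and Il6ra and Il10ra, both higher, where 6.81% of genes reached it upward and 6.33% downward. Without control replicate 1, limma called 651 genes (4.62%), among them Osm, which fell (1.69% of all genes), and Il10ra, which rose (2.93%). With the same library left out edgeR called 4.91% and DESeq2 7.71% of genes, and both called these 2 genes. Such fits have only 2 controls, whose spread may be understated. The median log2 difference over the 8 genes was -0.05, beside 0.0011 over all genes tested.

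**Figure D2:**
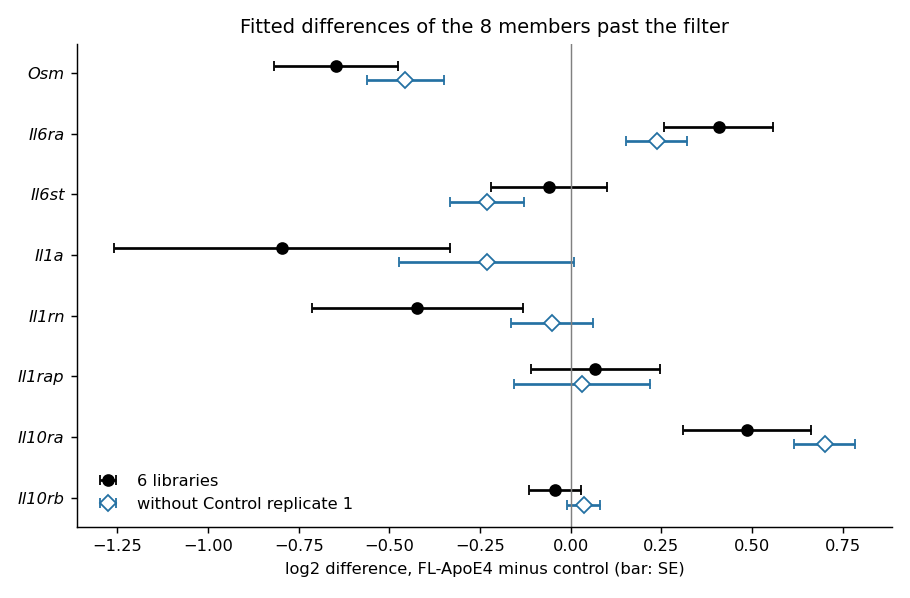
Log2 difference between FL-ApoE4 and control, on the log2(value + 1) scale, with its SE for the 8 genes past the filter; filled circles use all 6 libraries and open diamonds leave out control replicate 1. Osm stays below 0 and Il10ra and Il6ra above 0 in both fits, whereas Il1rn moves from -0.42 to -0.05.

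Osm, the gene of oncostatin M, a gp130 cytokine released by activated myeloid cells, was at 1578, 1062 and 1058 normalised reads in control replicates 1 to 3. With FL-ApoE4 it was at 722, 708 and 902. The highest treated library lay below the lowest control, as in 10.9% of all genes tested, and the treated mean was 0.63 of the control mean. The log2 difference was -0.65 ± 0.17 (SE), with a limma adjusted p of 0.204. Without control replicate 1 Osm fell by 0.46 on the log2 scale (limma adjusted p = 0.0472, edgeR adjusted p = 0.0421). The DESeq2 test on whole reads called it with all 6 libraries (log2 fold change -0.67, adjusted p = 0.0103). In the authors' deposited table Osm had a log2 fold change of -0.66 and an adjusted p of 0.0101, and it was the only 1 of the 10 in their table of significant genes, to which 1.33% of genes with an adjusted p belong as lower.

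Lif encodes leukaemia inhibitory factor, and its gene is the neighbour of Osm on chromosome 11. It was near the limit of detection, with 6, 4 and 6 reads in control replicates 1 to 3 and 2, 2 and 1 reads with FL-ApoE4. In normalised reads these were 6.52, 3.79 and 5.65 against 2.23, 1.85 and 0.979. All treated libraries lay below all controls, as in 10.9% of the genes tested. How often genes with so few reads separate was not tested. The two-sided exact permutation test gave p = 0.1, the smallest that 3 libraries against 3 allow. Lif did not pass the filter. With no filter its log2 difference was -1.24 (limma adjusted p = 0.319). At values this low the difference depended on the pseudocount, and it was -1.43 with 0.5 and -0.62 with 5 in place of 1.

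The receptors for these ligands in BV2 differed widely in level. Osmr, the specific chain of the oncostatin M receptor, had 2 reads in control replicate 2 and was listed at 0 in the other 5 libraries. Lifr, the LIF receptor chain that oncostatin M can also use, had 6, 5 and 2 reads in controls and 4, 1 and 3 with FL-ApoE4. Il6st, the shared chain, was at 3761, 5283 and 5456 normalised reads in controls and 3875, 5026 and 4909 with FL-ApoE4. The groups overlapped, and replicate 1 was the lowest library of each group. The log2 difference of Il6st was -0.06 ± 0.16 (limma adjusted p = 0.923). It was -0.23 without control replicate 1 (adjusted p = 0.267) and 0.059 without FL-ApoE4 replicate 1.

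Il6ra, which encodes the ligand-binding chain of the interleukin 6 receptor, was at 1716, 2416 and 2486 normalised reads in controls. With FL-ApoE4 it was at 2560, 3155 and 2980. The lowest treated library lay just above the highest control, a separation seen upward in 11.1% of genes tested. The log2 difference was 0.41 ± 0.15 with a limma adjusted p of 0.310, and 0.24 ± 0.085 without control replicate 1 (adjusted p = 0.171). The ligand gene Il6 was listed at 0 in all 6 libraries.

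Il6ra and Il6st moved together from library to library within each group, and their ratio within a library was far steadier than either gene. Normalised reads of Il6ra were 0.456, 0.457 and 0.456 of those of Il6st in control replicates 1 to 3. With FL-ApoE4 the ratio was 0.661, 0.628 and 0.607. Control replicate 1, in which both genes were low, had the same ratio as the other controls to 2 decimals. The ratio was 0.456 ± 0.00084 in controls and 0.632 ± 0.027 with FL-ApoE4 (mean ± SD, n = 3), a log2 difference of 0.47 that stayed between 0.44 and 0.50 when any single library was left out. It is given without a test. The controls held 1580 to 2638 reads of Il6ra and 3463 to 5790 of Il6st. Counting error alone at these numbers exceeds an SD of 0.00084, so that SD understates the uncertainty of the ratio. Both genes have long transcripts (8639 bases for Il6ra and 8678 for Il6st).

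**Figure D3:**
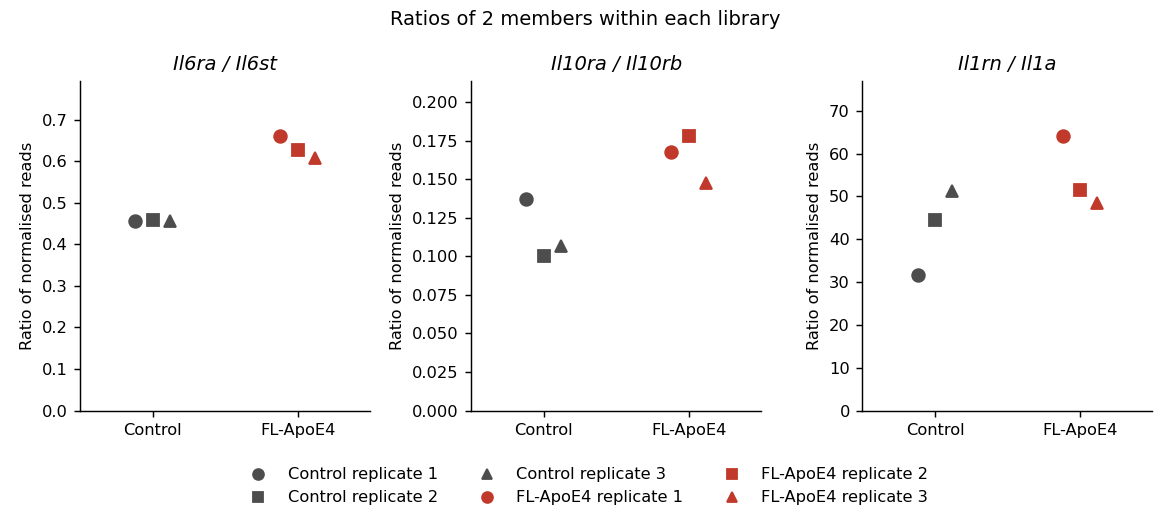
Ratio of normalised reads of 2 genes within each library, on linear axes from 0; grey points are controls, red points FL-ApoE4, and marker shape gives the replicate. The 3 controls coincide near 0.456 for Il6ra over Il6st and the treated libraries lie at 0.607 to 0.661, the groups also separate for Il10ra over Il10rb, and they overlap for Il1rn over Il1a.

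On the interleukin 10 axis, the ligand gene Il10 had 12, 17 and 8 reads in controls and 8, 9 and 6 with FL-ApoE4. As normalised reads it was at 13.03, 16.1 and 7.54 against 8.92, 8.34 and 5.87. The groups overlapped through control replicate 3, and the exact permutation test gave a two-sided p of 0.3. Its mean of 9.97 over the 6 libraries put it just under the filter.

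Il10ra, the ligand-binding receptor chain through which interleukin 10 restrains myeloid cells, was at 1035, 640 and 681 normalised reads in controls and 1114, 1138 and 977 with FL-ApoE4. Control replicate 1 lay among the treated libraries, while control replicates 2 and 3 lay well below them. The log2 difference was 0.49 ± 0.18 with all 6 libraries (limma adjusted p = 0.306). Without control replicate 1 Il10ra rose by 0.70 ± 0.084 (limma adjusted p = 0.00327, edgeR adjusted p = 0.00259).

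Il10rb, the second chain, is shared with receptors for interleukin 22 and for interferon lambda. It was at 7533, 6409 and 6377 normalised reads in controls and 6652, 6396 and 6609 with FL-ApoE4. Apart from control replicate 1, the libraries of both groups lay within a narrow range. The log2 difference was -0.044 ± 0.073 (limma adjusted p = 0.864), and 0.035 ± 0.047 without control replicate 1. Reads of Il10ra were 0.137, 0.0999 and 0.107 of those of Il10rb in controls and 0.168, 0.178 and 0.148 with FL-ApoE4. These ratios separated the groups even with control replicate 1 included, by a narrow margin. Among single genes, 21.9% of those tested separated in either direction, and how often ratios of other gene pairs do so was not tested.

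The promoter table of RefSeq (build GRCm38.p6) held 6 of the 10 genes, in 8 windows that run from 250 bases before to 50 bases after a transcription start. Among them, Il1a, Il1rn and Lif, the 3 ligand and antagonist genes in the table, each had a window with the AP-1 letters TGANTCA, which read the same on both strands. The STAT letters TTCNNNGAA and the NF-kB consensus were found in 0 of the 8 windows on either strand. Over all 32851 windows of the table, 7.81% held TGANTCA, 8.30% TTCNNNGAA and 4.51% the NF-kB consensus. The 250 bases before the start of those 3 genes are shown because Il1a and Il1rn had the same library, control replicate 1, far above the rest, and Lif was low in every treated library; capitals mark TGANTCA, and no other motif overlaps it.
Il1a: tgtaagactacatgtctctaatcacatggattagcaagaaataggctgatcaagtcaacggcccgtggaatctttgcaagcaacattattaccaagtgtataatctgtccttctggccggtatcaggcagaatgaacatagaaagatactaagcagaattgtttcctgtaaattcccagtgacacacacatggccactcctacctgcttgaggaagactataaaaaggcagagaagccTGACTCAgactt
Il1rn: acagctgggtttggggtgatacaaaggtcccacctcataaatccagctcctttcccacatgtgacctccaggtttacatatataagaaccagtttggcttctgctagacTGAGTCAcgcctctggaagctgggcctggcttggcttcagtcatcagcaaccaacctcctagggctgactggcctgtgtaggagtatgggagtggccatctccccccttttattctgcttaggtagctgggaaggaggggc
Lif: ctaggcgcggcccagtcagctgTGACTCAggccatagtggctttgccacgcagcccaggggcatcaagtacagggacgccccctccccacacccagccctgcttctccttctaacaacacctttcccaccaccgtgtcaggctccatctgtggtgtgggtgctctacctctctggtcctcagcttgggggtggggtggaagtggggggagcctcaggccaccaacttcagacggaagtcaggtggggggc
The windows are chr2:129309973-129310222 on the minus strand for Il1a, chr2:24336610-24336859 on the plus strand for Il1rn and chr11:4257318-4257567 on the plus strand for Lif. The letters begin at position -12 in Il1a, -141 in Il1rn and -228 in Lif, counted from the start. The other windows of Il1rn, at 2 further starts, did not hold them, nor did those of Il6ra, Il6st and Il1rap. Which start BV2 cells use was not tested.

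Il1a, which encodes the agonist IL-1α, an alarm cytokine kept in the cell and released on damage, was at 188, 61.7 and 53.7 normalised reads in controls. With FL-ApoE4 it was at 39.0, 45.4 and 65.6. Control replicate 1 was far above every other library, and the remaining libraries of both groups overlapped. The log2 difference was -0.80 ± 0.46 (limma adjusted p = 0.518), and -0.23 ± 0.24 without control replicate 1 (adjusted p = 0.662). Il1b, which encodes the other agonist, was listed at 0 in all 6 libraries.

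Il1rn, the receptor antagonist, was far more abundant, at 5938, 2741 and 2759 normalised reads in controls and 2503, 2343 and 3178 with FL-ApoE4. Again control replicate 1 was high and the other libraries overlapped. The log2 difference was -0.42 ± 0.29 (limma adjusted p = 0.592), and -0.05 ± 0.11 without that library. Normalised reads of Il1rn were 31.6, 44.5 and 51.4 times those of Il1a in controls and 64.1, 51.6 and 48.5 times with FL-ApoE4. The lowest ratio was in control replicate 1, in which both genes were highest, and the groups overlapped. The mean log2 difference of this ratio was 0.37, and 0.18 without control replicate 1.

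Il1rap, the accessory chain needed for signalling by IL-1, IL-33 and IL-36 receptors, was at 143, 134 and 179 normalised reads in controls and 127, 184 and 169 with FL-ApoE4. The groups overlapped across their whole range. Its log2 difference was 0.07 ± 0.18, with a limma adjusted p of 0.923, and 0.03 ± 0.19 without control replicate 1 (adjusted p = 0.948). Il1r1, the signalling receptor, was at 42.4, 21.8 and 33.0 against 35.7, 34.3 and 25.5. Il1r2, a decoy receptor that binds IL-1 without signalling, was at 34.8, 47.4 and 49.9 against 24.5, 14.8 and 32.3. All its treated libraries lay below all controls, as in 10.9% of all genes tested (log2 difference -0.90 ± 0.31, limma adjusted p = 0.282). The difference was -1.06 without control replicate 1.

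The 3 genes with the widest range over the 6 libraries were Il1a (2.24 on the log2 scale), Il1rn (1.34) and Osm (1.15). Nearest to each were sought the genes whose log2 profile, centred on its own mean, had the smallest root mean square difference over the 6 libraries. For Osm these were Gimap6 (0.080), the phosphatase regulator Ppp1r15a (0.091) and the stress transcription factor Atf3 (0.092). For Il1rn they were Serpinb9b (0.081), Ptgs2os2 (0.087) and the metalloproteinase gene Mmp12 (0.099), and for Il1a the predicted gene Gm13889 (0.117) and Malt1 (0.171), which encodes a paracaspase of NF-kB signalling. Each of these named genes had control replicate 1 as its highest library. That follows from how they were sought, since Osm, Il1rn and Il1a are themselves highest there.

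Other genes of the 3 axes were taken from 6 lists chosen by role, 81 genes of which 54 passed the filter. With all 6 libraries limma called 0 of the 54 (edgeR also called 0), whereas DESeq2 called 6, beside 2.91% of all genes. An unadjusted limma p under 0.05 was reached by 3 with positive values, beside 6.81% of all genes, and by 11 with negative values, beside 6.33%. Without control replicate 1 limma called 9, beside 4.62% of all genes, and of these 4 rose and 5 fell. The 54 had a median log2 difference of -0.06 with all libraries and 0.0052 without control replicate 1. All genes tested had medians of 0.0011 and 0.00086.

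The further ligands and receptors of the gp130, IL-10 and IL-1 families were mostly at low level. In the gp130 list 2 of 13 passed the filter, and of these Il27, an IL-12 family subunit, was at 161, 25.6 and 27.3 normalised reads in controls and 8.92, 17.6 and 10.8 with FL-ApoE4. All treated libraries of Il27 lay below all controls, as in 10.9% of all genes tested, and control replicate 1 was far above the other controls. Its log2 difference was -1.94 ± 0.68 with a limma adjusted p of 0.292. DESeq2 called it lower (adjusted p = 0.0159), as did the authors' deposited table (log2 fold change -2.51, adjusted p = 0.0156). Its difference was -1.08 without control replicate 1 (limma adjusted p = 0.132). Il11ra1 had 0.15 ± 0.26. In the IL-10 list 2 of 9 passed, Il20rb (-0.16 ± 0.21) and Ifnlr1 (0.10 ± 0.19). Both changed sign without control replicate 1, to 0.085 in Il20rb and -0.052 in Ifnlr1. In the IL-1 list 10 of 18 passed, 7 with a negative value and 3 with a positive one, and with all 6 libraries 0 were called by limma, edgeR or DESeq2. An unadjusted limma p under 0.05 was reached by 2, both with negative values, beside 6.33% of all genes. Il18, the gene of interleukin 18, rose by 0.40 in DESeq2 without control replicate 1 (adjusted p = 0.0322), where limma gave an adjusted p of 0.0935. With all 6 libraries Il18 had 0.15 ± 0.21 (limma adjusted p = 0.822, DESeq2 adjusted p = 0.942). The lowest p with all libraries after Il1r2 belonged to Il1rapl1 (-1.27 ± 0.44, limma adjusted p = 0.290). Its groups overlapped, at 22, 27 and 15 reads in controls and 4, 8 and 15 with FL-ApoE4. Il1f9, the gene of IL-36γ, followed (-1.38 ± 0.71), then Il18bp, a soluble inhibitor of interleukin 18 (-0.17 ± 0.099). Il1f9 was at 71.7 normalised reads in control replicate 1 against 13.3 and 11.3 in the other controls, and without that library its difference was -0.56 (limma adjusted p = 0.583).

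Differences were small among the adaptors and kinases below the IL-1 receptor. All 13 passed the filter, with a median of -0.0056, and values ran from -0.24 to 0.29. Irak4, the first kinase of the complex, had 0.14 ± 0.057 (limma adjusted p = 0.339), Tollip, a brake on it, -0.17 ± 0.074, the ubiquitin ligase gene Traf6 -0.16 ± 0.069 and Tab1 0.11 ± 0.060. Tollip was at -0.10 and Tab1 at 0.071 without control replicate 1. Irak3, which encodes the inhibitory IRAK-M, was at 906, 340 and 396 normalised reads in controls and 559, 664 and 603 with FL-ApoE4. It rose by 0.73 without control replicate 1 (limma adjusted p = 0.00666) and was at 0.29 ± 0.33 with it. It was named after its values were seen, as were Il18, Tyk2, Socs3, Myd88 and Jak2. Myd88 had 0.06 ± 0.13 with all 6 libraries. Without control replicate 1 it was at 0.22 (limma adjusted p = 0.0807), and DESeq2 called it (adjusted p = 0.0320).

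Among the 14 kinases, factors and brakes of JAK-STAT signalling, an unadjusted p under 0.05 was reached by 2 with positive and 1 with negative values, beside 6.81% and 6.33% of all genes. Ptpn6, which encodes the inhibitory phosphatase SHP-1, was at 11918, 13162 and 13854 normalised reads in controls and 17305, 17524 and 16288 with FL-ApoE4. Every treated library lay above every control, as in 11.1% of all genes tested. Its log2 difference was 0.39 ± 0.066 (limma adjusted p = 0.112), and it rose by 0.33 without control replicate 1 (adjusted p = 0.00961). DESeq2 called Ptpn6 higher with all 6 libraries (adjusted p = 0.000247), and it was in the authors' table of significant genes. The kinase gene Tyk2 rose by 0.39 without that library (limma adjusted p = 0.0288) and was at 0.19 ± 0.16 with it. Jak1 (0.02 ± 0.053), the kinase of both the gp130 and IL-10 receptors, and Stat3 (-0.04 ± 0.069) were near 0, and at 0.0082 and 0.012 without control replicate 1. Jak2 had -0.06 ± 0.21 with all 6 libraries. Without control replicate 1 it was at 0.22 (limma adjusted p = 0.0826), and DESeq2 called it (adjusted p = 0.0432).

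STAT factors induce their own feedback inhibitors, Cish and Socs3 among them. Cish was at 420, 156 and 148 normalised reads in controls and 95.9, 85.3 and 103 with FL-ApoE4. Socs3, the main brake on gp130, was at 5331, 2049 and 1972 against 1664, 1691 and 1483. In both genes all treated libraries lay below all controls, as in 10.9% of all genes tested, and control replicate 1 was far above the other controls. Without it Cish fell by 0.68 (limma adjusted p = 0.0297) and Socs3 by 0.32 (adjusted p = 0.0418). With all 6 libraries they had -1.17 ± 0.38 (limma adjusted p = 0.258) and -0.79 ± 0.35 (limma adjusted p = 0.398). DESeq2 with all 6 libraries called Cish lower (adjusted p = 0.0144) but not Socs3 (adjusted p = 0.386). Cish was also in the authors' table of significant genes. Socs2 had 0.19 ± 0.080.

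Of the 14 STAT3 and interleukin 10 response genes 13 passed the filter, 10 with negative values, at a median of -0.20. The highest value was 0.52. An unadjusted limma p under 0.05 was reached by 6, all lower, where 6.33% of all genes reached it in that direction. Control replicate 1 lay above the mean of the other controls by a median of 0.30 in this list, beside -0.0032 over all genes. Without that library the list had a median log2 difference of -0.18, and limma called 3, all lower, beside 1.69% of all genes. Bcl3, an IκB-like factor induced by interleukin 10, was at 1334, 1019 and 1043 normalised reads in controls and 734, 697 and 763 with FL-ApoE4. Its log2 difference was -0.62 ± 0.11 (limma adjusted p = 0.112). Leaving out control replicate 1, Bcl3 fell by 0.50 (limma adjusted p = 0.00655). Junb fell by 0.47 (adjusted p = 0.00358) and the kinase gene Pim1 by 0.69 (adjusted p = 0.0175) in the same fit, with -0.60 ± 0.11 and -1.13 ± 0.34 over all 6 libraries (adjusted p = 0.112 and 0.236). Hmox1, the haem oxygenase gene, had -0.71 ± 0.21 (limma adjusted p = 0.228), and -0.47 without control replicate 1 (adjusted p = 0.0574). DESeq2 with all 6 libraries called Bcl3 (adjusted p = 0.000179) and Junb (adjusted p = 7.56e-05), both also in the authors' table of significant genes. It did not call Pim1 (adjusted p = 0.126) or Hmox1 (adjusted p = 0.165). Timp1 was listed at 0 in all libraries.

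**Figure D4:**
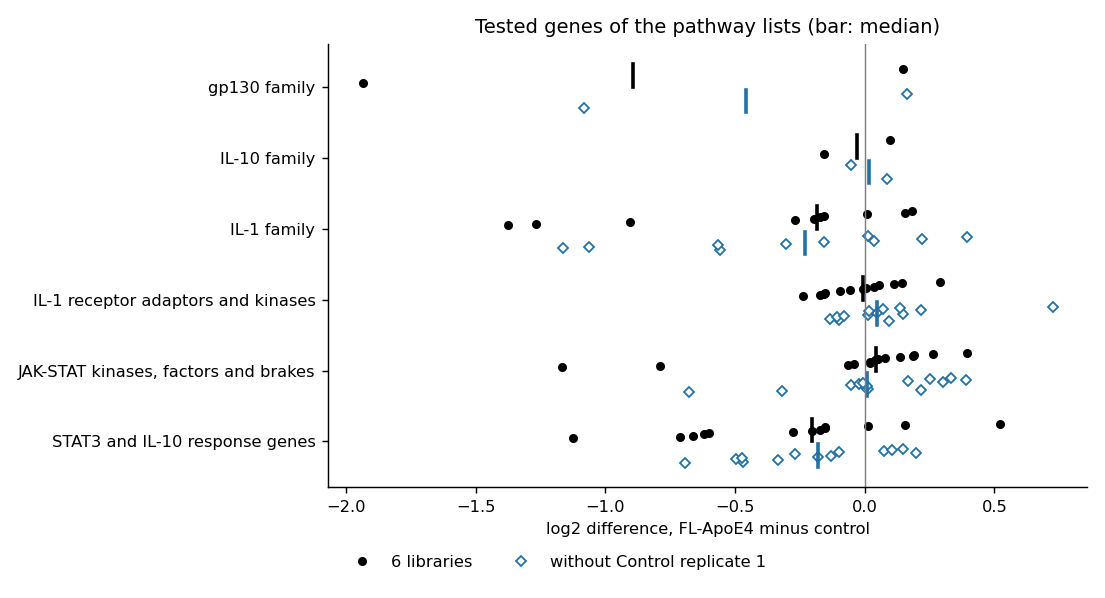
Log2 difference between FL-ApoE4 and control for each tested gene of 6 lists chosen by role; filled circles use all 6 libraries, open diamonds leave out control replicate 1, and vertical bars are medians. The STAT3 and IL-10 response genes have 10 of 13 values below 0 and a median of -0.20, and the IL-1 receptor adaptors and kinases a median of -0.0056.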

How the data were processed

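Total RNA of 6 BV2 samples was sequenced from libraries made with a directional kit, per the labels' protocols. The submitters' processing notes name HISAT2 2.2.1 and HTSeq, FastQC 0.11.8, and DESeq2 1.30.1, with build GRCm39. How each was set, strand included, is not given in the sources used here, so genes that overlap on either strand are uncertain. The deposited reads are a normalised signal for each gene. There 100% of values in each library were whole multiples of the smallest value (tolerance 0.01), which gave whole reads. The authors' deposited tables also hold a mean signal, log2 fold changes with SE, a score (their test statistic) and p-values, used only where named.

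In R 4.3.3, limma 3.58.1 was the main test, fitted to log2(value + 1) with a trend of variance on mean and group as the only term, for 14079 genes with a mean of at least 10, two-sided, Benjamini-Hochberg adjusted over all of them. Alternatives on the whole reads were DESeq2 1.42.0 and the quasi-likelihood test of edgeR 4.0.16, each also without control replicate 1, which was added after seeing the data. Genes under the filter got an exact permutation test. Only the limma test was tried on simulated data, which had the same dispersion for every gene and no library set apart. The 10 genes and the lists were chosen with earlier results of these data known. Named genes were the 10, up to 4 of lowest p per list, list genes in the authors' significant table, and the nearest profiles; exceptions are named, and 2 genes that the rule picks are not reported here. Transcript lengths came from GENCODE M21 (GRCm38), names and promoters from RefSeq; 4 list names were matched through synonyms.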

Additional observations from a re-analysis of the deposited data

How the results depend on the processing

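Array quality weights turned the count of genes called from 0 to 1551, of the 10 genes from 0 to 3 (Osm, Il10ra and Il6ra, at -0.46, 0.68 and 0.33) and of pathway genes from 0 to 12. DESeq2 gave 370, 1 and 6. Without control replicate 1, edgeR gave 691, 2 and 9, and DESeq2 959, 2 and 12. With no filter 1 gene was called in all. Leaving out single libraries gave 0 to 651 genes, 0 to 2 of the 10 and 0 to 9 pathway genes, and the upper ends are those without control replicate 1; without FL-ApoE4 replicate 2, 1 gene was called. The cause of these moves was not tested. Other pseudocounts, filters, scalings and variance models left the counts for the 10 genes and the pathway genes at 0.

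Values near 0 changed sign. Il10rb was at 0.014 with array weights, and without control replicate 1 at 0.035 by limma, 0.039 by edgeR and 0.033 by DESeq2. Il6st was at 0.014 and 0.037 without control replicates 2 and 3 and at 0.059 without FL-ApoE4 replicate 1. Il1rap was at -0.011 with quantile normalisation, -0.019 without control replicate 2 and -0.039 without FL-ApoE4 replicate 2. Over single libraries left out they ran from -0.085 to 0.035, -0.23 to 0.059 and -0.039 to 0.22. The other 7 genes kept their sign in every setting run.

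Whether replicate numbers pair the samples was not settled. Deviations from group means correlated at 0.13, 0.068 and -0.026 across genes for numbers 1 to 3. Control replicates 1 and 2 each correlated best with the FL-ApoE4 library of the same number. Control replicate 3 correlated best with FL-ApoE4 replicate 2 (0.16). With 3 libraries per group, such correlations cannot decide the question. With the replicate block 0 genes, 0 of the 10 and 0 pathway genes were called.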
